A study of Mus musculus with 26 samples.

Results

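Total H3K27me3 of non-clonal E14 mouse embryonic stem cells was compared with that of wild-type clones over the regions that the authors listed for total H3K27me3 in E14 cells. All 21527 regions of that set were taken, out of 338442 regions over all sets of the series, and 497 of them (2.31%) lie on chromosome 14 between 40 and 90 Mb (mm10) and were set apart. E14 is an established mouse embryonic stem cell line, grown here in serum and LIF. The 2 E14 libraries come from a non-clonal population and are replicates from different passages and days, sequenced in batch A (replicate 1) and batch B (replicate 2). The 2 WT clone libraries come from clones 57 and 58, which the labels give as E14 strain and WT genotype, each a single clone, sequenced in batch C. All 4 were made with the same H3K27me3 antibody from MNase-treated chromatin, as the in-line total, that is the 10% of the first ChIP kept back from a sequential reChIP. E14 cells and clones share no batch, so the cell population and the sequencing batch cannot be told apart. The p-values measure the spread between these 2 passages and these 2 clones. Where they are named beside the comparison, the DKO clones 43 and 53 lack DPPA2 and DPPA4 and were sequenced with the WT clones in batch C.

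H3K27me3 is laid down by Polycomb repressive complex 2 (PRC2), in which EZH2 or EZH1 is the methyltransferase and EED reads the mark and helps it to spread. In embryonic stem cells PRC2 gathers at CpG islands that lack DNA methylation, above all at promoters of developmental transcription factors and signalling genes, and the Hox clusters are its classic broad domains. Many of these promoters also carry H3K4me3 and are then called bivalent. A value from a population of cells cannot tell fewer marked cells or alleles from less mark on each.

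The regions were 300 to 20400 bp wide, with a median of 750 bp, and 3679 of them (17.1%) lay within 1.5 kb of a RefSeq start site, here called promoter regions. To show how the promoter regions at either end of the comparison differ in sequence, the central 300 bases of the first 2 in each direction are given from the plus strand of GRCm38.p6 (NCBI RefSeq), with CpG dinucleotides in capitals. The Cldn23 and Uggt2 regions were higher in the WT clones, and the Pcx and Dnah11 regions were higher in E14.
Cldn23, chr8:35825551-35825850: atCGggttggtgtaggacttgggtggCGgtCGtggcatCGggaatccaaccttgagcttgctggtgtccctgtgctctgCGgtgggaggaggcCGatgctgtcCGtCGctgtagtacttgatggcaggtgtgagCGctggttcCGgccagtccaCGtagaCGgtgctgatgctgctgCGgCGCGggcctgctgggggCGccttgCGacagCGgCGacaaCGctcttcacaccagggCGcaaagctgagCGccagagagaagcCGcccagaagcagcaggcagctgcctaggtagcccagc
Uggt2, chr14:119098801-119099100: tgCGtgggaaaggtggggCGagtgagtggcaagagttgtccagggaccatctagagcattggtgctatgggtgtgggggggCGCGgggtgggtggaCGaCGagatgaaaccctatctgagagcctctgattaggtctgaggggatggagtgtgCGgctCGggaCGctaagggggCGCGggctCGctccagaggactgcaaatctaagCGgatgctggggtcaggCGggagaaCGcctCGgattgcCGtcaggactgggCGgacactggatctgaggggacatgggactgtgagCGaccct
Pcx, chr19:4511401-4511700: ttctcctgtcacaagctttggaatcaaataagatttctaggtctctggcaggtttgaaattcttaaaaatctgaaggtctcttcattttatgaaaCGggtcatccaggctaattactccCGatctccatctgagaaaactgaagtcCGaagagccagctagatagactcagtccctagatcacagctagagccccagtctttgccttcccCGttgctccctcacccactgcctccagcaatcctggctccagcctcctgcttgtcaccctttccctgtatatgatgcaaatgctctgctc
Dnah11, chr12:118197451-118197750: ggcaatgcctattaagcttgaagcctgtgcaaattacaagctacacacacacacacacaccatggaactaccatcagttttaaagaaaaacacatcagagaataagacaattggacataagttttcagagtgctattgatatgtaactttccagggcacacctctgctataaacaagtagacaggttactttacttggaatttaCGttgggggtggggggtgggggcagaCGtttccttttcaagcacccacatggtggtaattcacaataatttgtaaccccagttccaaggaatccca
These stretches hold 23 CpG at Cldn23 and 19 at Uggt2, against 4 at Pcx and 2 at Dnah11. Their GC contents are 65%, 62.7%, 47.7% and 42.3% in the same order. Over all regions the median GC content was 46.0%, and the median density was 1.0 CpG per 100 bp.

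The labelled cell type was read from its markers. Of the embryonic stem cell markers Pou5f1, Nanog, Sox2, Zfp42 and Esrrb, all 5 had an E14 total H3K4me3 region at the promoter, and only Esrrb had an E14 total H3K27me3 region. An E14 total H3K4me3 region was also present at 5 of 6 primitive endoderm, 3 of 4 trophectoderm and 2 of 4 mesenchyme markers, so its presence alone does not set the cell type apart. Of the 6 primitive endoderm markers, 4 had an E14 total H3K27me3 region, namely Gata4, Sox7, Sox17 and Foxa2. The same held for 3 of 4 trophectoderm markers (Cdx2, Gata3 and Hand1) and for 2 of 4 mesenchyme markers (Col1a1 and Prrx1).

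The libraries were of unequal depth and spread. E14 replicates 1 and 2 held 12294689 and 31847411 reads and clones 57 and 58 held 18429872 and 15601152, with 14, 39, 19 and 14 reads in the median region. No region had fewer than 10 reads in E14 replicate 2, whereas 25.8% of regions did in replicate 1, 22.8% in clone 57 and 34.1% in clone 58. The set was thus bounded from below in the deepest library, and 12.7% and 12.3% of regions in the clones lay below the lowest value of that library. After each library was centred on its median, the SD across regions of the values (log2 RPM per kb) was 0.44 and 0.25 in E14 and 0.82 and 0.71 in the clones. Across all regions, which share their libraries and are no replicates, Pearson's r was 0.59 between the clones and -0.03 between the E14 replicates. In the 548 regions of 5 kb or wider r was 0.95 and 0.51.

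The comparison asked which regions differ in total H3K27me3 between E14 cells and WT clones. With limma and Benjamini-Hochberg adjustment over all regions, 0 regions (0.0%) passed a log2 difference above 1 and an adjusted p under 0.05 in either direction, and the smallest adjusted p was 0.0566. At an unadjusted p under 0.05, limma gave 1519 regions (7.06%) higher in E14 and 3216 (14.9%) higher in WT clones. Which direction held more regions depended on the scaling. The counts higher in E14 and in WT clones were 3794 and 1061 without centring, 5799 and 1242 centred on the widest regions, 1263 and 321 under cyclic loess, and 6929 and 7038 with IgG-IgG subtracted. Both E14 libraries lay above both clones in 5068 regions (23.5%) and below both in 6297 (29.3%). The 2 counts are not alike in depth. Of the former 3736 (73.7%) and of the latter 469 (7.4%) had under 10 reads in a library, against 42.5% of all regions. With a log2 difference above 1 the counts without overlap were 1508 (7.01%) higher in E14 and 1479 (6.87%) higher in WT clones. Outside the chromosome 14 segment, 4668 of 21030 regions (22.2%) lay higher in E14 and 6291 (29.9%) higher in WT clones without overlap.

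Calls appeared where regions with few reads were left out or given less weight. Among the 12379 regions with at least 10 reads in every library, limma called 1418 (11.5%) higher in WT clones and 35 (0.283%) higher in E14, and the median difference over these regions was -0.25. With precision weights from the reads, limma called 1469 of 21527 regions (6.82%) higher in WT clones and 182 (0.845%) higher in E14. Of the regions called higher in E14, 19 and 90 lay outside the chromosome 14 segment, while all of those called higher in WT clones did. The direction of the calls also depended on the scaling. Over all regions, calls higher in E14 and in WT clones were 1010 and 96 without centring, and 5911 and 5791 with IgG-IgG subtracted. Differences below come from the fit to all regions, in which no region passed, and calls are those among regions with at least 10 reads. A minimum of reads in every library removes regions that are low in the clones, and the differences given below for named regions and lists were not filtered in this way.

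The largest differences toward the WT clones at protein-coding promoters lay at CpG-rich regions whose E14 values were near the library median. The 8 largest were taken among 1758 such regions outside the segment with an unadjusted p under 0.05, no overlap between groups and at least 10 reads in both clones. At Cldn23, which encodes a tight-junction claudin (chr8:35824951-35826450), the centred log2 value was -0.22 and -0.17 in E14 replicates 1 and 2, and 2.45 and 1.95 in clones 57 and 58. Both clones stood well above both E14 libraries, with 212 and 106 reads against 24 and 68. The difference, E14 minus WT clones, was -2.39 with a standard error of 0.29, or 5.24-fold higher in the clones (limma adjusted p = 0.0566).

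Uggt2 encodes a glucosyltransferase that checks the folding of glycoproteins. At its promoter (chr14:119098651-119099250, outside the segment), the values were -0.31 and 0.15 in E14 and 2.17 and 1.97 in the clones, a difference of -2.15 with a standard error of 0.29. Only 9 reads stood behind the value of E14 replicate 1. The DKO clones measured -0.17 and 0.58 there, well below the WT clones. At the other 7 promoters of this group the DKO clones lay between 1.23 and 2.23, above both E14 libraries.

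Genes for signalling and matrix proteins made up the next group. At Ephb1, an ephrin receptor of axon guidance (chr9:102351751-102354450), E14 measured -0.19 and -0.29 and the clones 2.09 and 1.63, a difference of -2.10. Ucn, which encodes the neuropeptide urocortin (chr5:31135951-31139700), measured 0.16 and -0.13 in E14 and 2.33 and 1.83 in the clones, a difference of -2.06. At Adamts1, a metalloproteinase of the extracellular matrix (chr16:85801951-85802700), the values were 0.20 and -0.09 against 2.54 and 1.68, a difference of -2.05. In each of them the lower clone lay more than 1 log2 unit above the higher E14 library.

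The remaining promoters belong to genes of ion and hormone handling. Tesc, a calcium-binding regulator of sodium/proton exchange (chr5:118028101-118031100), measured -0.51 and -0.09 in E14 and 2.11 and 1.5 in the clones, a difference of -2.11. At Cacnb4, a calcium channel subunit (chr2:52674751-52675950), the values were -0.39 and -0.16 against 2.11 and 1.52, a difference of -2.09. Dio3, an imprinted gene whose enzyme inactivates thyroid hormone (chr12:110278951-110282100), measured 0.43 and -0.25 against 2.23 and 2.01, a difference of -2.03. As at Cldn23, the limma adjusted p was 0.0566 at each of these promoters. Of the 8, all but Uggt2, which has too few reads, were called higher in WT clones among regions with at least 10 reads. Their size depended on the scaling. With the trend on GC content removed from each library the 8 ran from -1.22 (Cldn23) to -0.07 (Adamts1), under cyclic loess from -1.01 (Tesc) to -0.41 (Dio3), and with IgG-IgG subtracted from -2.65 (Tesc) to -0.08 (Adamts1).

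**Figure D1:**
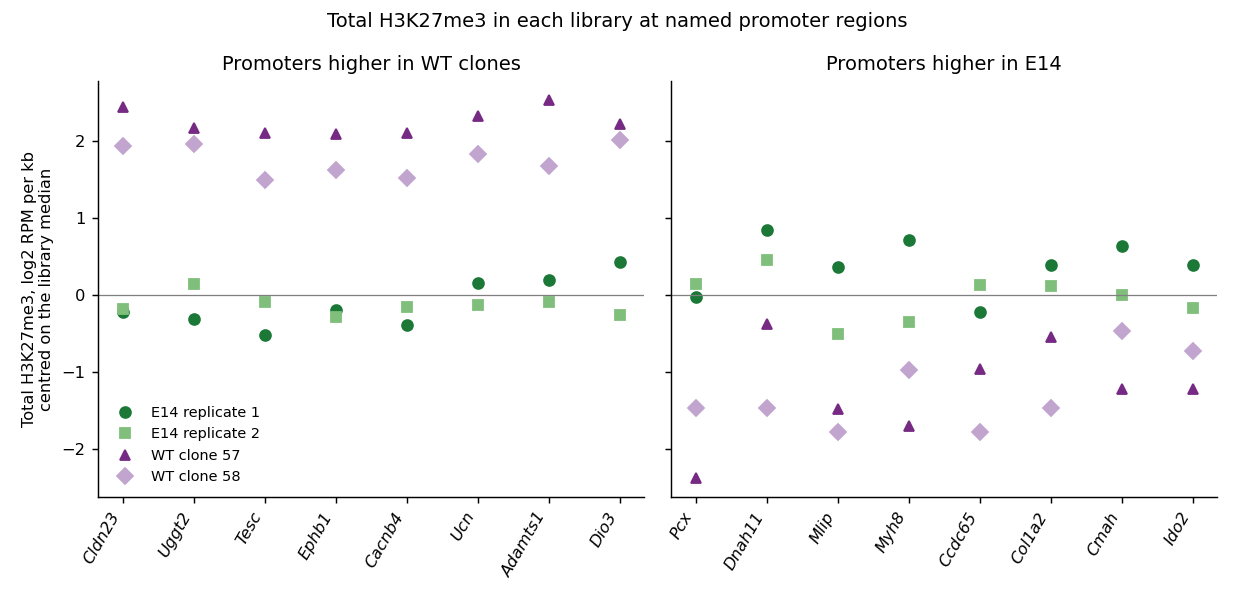
Total H3K27me3 in each of the 4 libraries (1 point each) at the 8 named promoter regions with the largest difference in either direction, as log2 RPM per kb minus the median of the library. On the left the clones sit between 1.5 and 2.54 and E14 between -0.51 and 0.43, and on the right the clones sit at -0.37 or lower.

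The other ChIPs were read at the same 8 promoters, each library centred on its median over the E14 total H3K27me3 regions. At Cldn23 total H3K4me3 was 1.68 and 2.16 in E14 and 4.13 and 2.39 in the clones, and K4-K27 (H3K4me3 ChIP followed by H3K27me3 ChIP) was 2.88 and 4.09 against 5.60 and 4.33. In both, the 2 clones were the higher ones. In the reverse order, K27-K4 measured 3.55 and 5.79 in E14 and 4.99 and 4.01 in the clones, so that the groups overlapped. At all 8 promoters E14 replicate 1 lay below both clones in K27-K4 and E14 replicate 2 above both, with E14 values from 3.10 to 6.46 and clone values from 3.37 to 5.39. The IgG-IgG control at Cldn23 was -0.15 in E14 and -0.42 in clone 57, below its own median in both. At the other 7 promoters it lay above the median in clone 57, from 0.12 (Tesc) to 1.58 (Adamts1), and between -0.15 and 0.99 in E14. All 8 regions overlapped a region of the WT clone total H3K27me3 set and of the E14 total H3K4me3, K4-K27 and K27-K4 sets.

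Promoter regions of developmental transcription factors, well-known targets of Polycomb in these cells, had negative median differences in each family read, although many genes of some families had no region. Of 39 Hox cluster genes, 35 had at least 1 promoter region among the set, and in all 43 of their regions both E14 libraries lay below both clones, against 72.9% of all promoter regions and 29.3% of all regions. The median difference over the Hox regions was -1.16, against -0.68 over all promoter regions and 0.03 over all regions. The median Hox value was 0.26 and 0.20 in E14, 1.67 and 1.2 in clones 57 and 58, and 1.54 and 1.28 in the DKO clones. Among regions with at least 10 reads 29 of the 43 were called higher in WT clones, against 28.8% of all promoter regions with as many reads (964 of 3353) and 11.5% of all such regions. Every list region is a promoter region, so the promoter shares are nearer to the lists than those of all regions. Most lists hold wider regions, though, with a median width of 4500 bp for Hox against 2100 bp for promoter regions. Among the 1840 promoter regions of 2 kb or wider the median difference was -0.85. In 91.4% of these both E14 libraries lay below both clones, and 642 were called higher in WT clones. Both E14 libraries lay above both clones in 5.6% of promoter regions (206 of 3679), which is the share for the counts higher in E14. Of the lists, 8 hold 1 or 2 regions of the chromosome 14 segment, and without these their medians moved by at most 0.13 on the log2 scale. The size of the difference rests on the scaling. Under cyclic loess, which removes any trend of the difference with the level, the Hox median was 0.08, with its sign turned.

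The Hox examples that follow, and the other list genes named with values below, were chosen after their values were seen. At the Hoxd10 and Hoxd9 region (chr2:74691301-74697600), the largest of the family in difference, E14 measured 0.18 and -0.02 and the clones 2.01 and 1.47, a difference of -1.66. Hoxa10, a posterior gene of the A cluster (chr6:52234201-52238700), measured 0.37 and 0.35 against 2.08 and 1.58. Both regions were called higher in WT clones. The smallest difference of the family was -0.27, at a Hoxc13 region (chr15:102914251-102920550) with 0.16 and 0.09 in E14 and 0.51 and 0.28 in the clones. This region was not called.

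Other homeobox and patterning families followed the Hox genes in direction. The median difference was -1.21 over 12 regions of Pax factors, -1.14 over 8 of Nkx factors, -1.28 over 9 of Irx and sine oculis homeobox factors and -1.19 over 14 of LIM homeobox factors. Both E14 libraries lay below both clones in 11, 8, 9 and 13 of these, and 9, 7, 7 and 10 were called. At Nkx1-2, a homeobox gene of the posterior embryo (chr7:132596551-132599400), E14 measured 0.08 and -0.04 and the clones 2.18 and 1.77, a difference of -1.95. Pax7, of neural crest and muscle precursors (chr4:139828651-139832100), measured 0.19 and 0.31 against 2.30 and 1.68, a difference of -1.74. At Lhx5, a forebrain factor (chr5:120431851-120436500), the values were 0.27 and -0.07 against 2.21 and 1.67, a difference of -1.84. All 3 regions were called higher in WT clones.

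Among other transcription factors, 11 of 44 forkhead, 5 of 19 Sox and 3 of 6 Gata genes had a region. The 13 forkhead regions had a median difference of -1.34, the 11 proneural bHLH regions -1.37, the 10 T-box regions -0.98, the 6 Sox regions -0.75 and the 3 Gata regions -0.84. Both E14 libraries lay below both clones in 13, 11, 9, 6 and 2 of them, and 10, 8, 4, 2 and 1 were called. The Sox and Gata lists each hold 1 region of the segment, Sox7 and Gata4, and without it the medians were -0.79 over 5 and -0.96 over 2 regions. Foxa2, a master factor of endoderm (chr2:148046251-148048650), measured -0.16 and 0.00 in E14 and 1.79 and 1.28 in the clones. Neurog3, of pancreatic endocrine precursors (chr10:62129851-62134800), measured 0.09 and -0.23 against 1.85 and 1.38. At Tbx1, a factor of the pharyngeal arches (chr16:18582751-18586650), the values were 0.49 and 0.14 against 2.54 and 1.86, a difference of -1.88, and all 3 regions were called.

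Signalling genes and channels had medians from -0.93 to -0.81, nearer to that of all promoter regions than the Hox median was. The 25 regions of Wnt ligands and Frizzled receptors had a median difference of -0.93, with 23 lower in E14 without overlap and 11 called. The 12 regions of BMP, GDF and Nodal ligands had a median of -0.84, with 9 lower and 1 higher in E14, and 2 called, which is no more than among promoter regions as a whole. The 1 higher in E14 lies in the chromosome 14 segment, and without the 2 segment regions the median was -0.91. Fzd1, a Wnt receptor (chr5:4754251-4756800), stood at -0.04 and -0.01 in E14 and at 1.83 and 1.15 in the clones, and was called higher in WT clones. Potassium channels had 64 regions with a median of -0.82, of which 57 lay lower and 2 higher in E14, and 24 of the 62 with enough reads were called. Over the 19 regions of ionotropic neurotransmitter receptors the median was -0.81, and 7 of 17 were called. For Kcnc1, a voltage-gated channel of fast-spiking neurons (chr7:46396801-46400700), E14 measured 0.26 and -0.16 and the clones 1.98 and 1.36.

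The 16 regions of imprinted genes had a median of -1.2, with 14 lower and 1 higher in E14 and 13 called. At Grb10, an imprinted growth inhibitor (chr11:12026701-12027450), E14 measured 0.11 and -0.01 and the clones 2.27 and 1.64, a difference of -1.91. Polycomb components had 9 regions with a median of -0.78, of which 2 were called, near the promoter background, and IgG-IgG subtraction turned this median to 0.24. Cbx8, a chromodomain subunit of PRC1 (chr11:119033101-119040750), stood at 0.33 and 0.10 in E14 and at 1.88 and 1.33 in the clones.

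Markers of early lineages were read in the same way. All 6 trophectoderm regions lay lower in E14 without overlap and all 6 were called, with a median of -1.16. At Cdx2, the trophectoderm homeobox factor (chr5:147300001-147306600), E14 measured 0.21 and 0.12 and the clones 1.92 and 1.42. Primitive endoderm markers had 9 regions with a median of -1.14 (0.01 with IgG-IgG subtracted), of which 6 lay lower and 1 higher in E14, and 5 of 8 were called. Without Gata4 and Sox7, which lie in the segment, the median over the other 7 was -1.18. Epiblast and early mesoderm markers had 12 regions with a median of -1.02, and 7 were called. The 10 mesenchyme regions had a median of -0.58, with 2 of 9 called, and did not exceed promoter regions as a whole in either. Esrrb was the only 1 of 20 pluripotency genes with a region. At Esrrb (chr12:86417851-86423250) E14 measured 0.21 and -0.02 and the clones 1.37 and 1.06, a difference of -1.12, and the region was called higher in WT clones.

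The remaining lists had medians nearer to 0 or above it. The 14 germline regions had a median of -0.40, with 7 lower and 1 higher in E14 and 1 of 13 called. The 1 higher in E14, at Piwil2, lies in the chromosome 14 segment. Of 15 housekeeping genes only B2m, the light chain of MHC class I, had a region, with a difference of -0.43. Centring on the widest regions, which moved the median over all regions from 0.03 to 0.57, turned the germline median to 0.14 and B2m to 0.11. Olfactory and vomeronasal receptors had 22 regions at 19 of 1460 genes, with a median of 0.28. Of these 22, 6 lay higher and 2 lower in E14, against 5.6% and 72.9% of promoter regions. These regions were narrow, however, with a median width of 600 bp. Of all regions of 450 to 600 bp, 32.2% lay higher and 10.3% lower, so the list did not stand apart from regions of its width. Without Olfr736, which lies in the segment, 5 of 21 lay higher and the median was 0.26. Of the 9 with enough reads none was called in either direction by limma. No gene of the Dppa and two-cell list had a region.

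**Figure D2:**
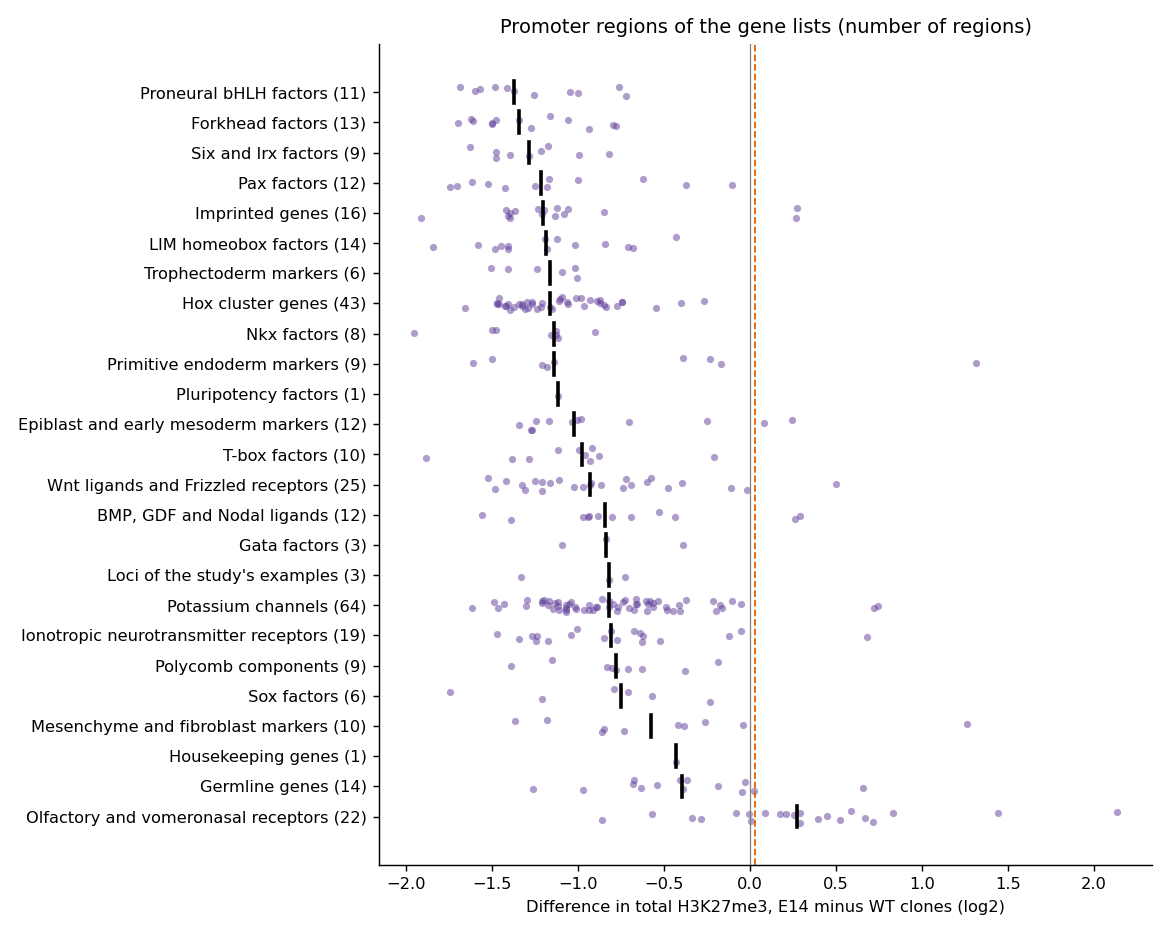
Difference in total H3K27me3 (E14 minus WT clones, log2) at each promoter region of the gene lists (points), with the median of the list (black bars) and the median of all regions (dashed line, 0.03). The list medians run from -1.37 for proneural factors to 0.28 for olfactory receptors, and under cyclic loess they lie between -0.31 and 0.16.

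A list of 9 genes was taken from those that the study used as controls or examples, which are more than these. Of the 9, 2 had a promoter region of this set, Tlx1 and Gm6116, and the other 7 had none. Tlx1, a homeobox gene needed for the spleen (chr19:45147601-45150900), measured 0.33 and -0.01 in E14 and 1.71 and 1.27 in the clones. The difference was -1.33 with a standard error of 0.30 (limma adjusted p = 0.0621), and the region was called among those with at least 10 reads. At Gm6116, 2 regions (chr5:74947201-74950350 and chr5:74950501-74952900) had differences of -0.82 and -0.72. Neither was called, although both clones lay above both E14 libraries in each. The IgG-IgG subtraction turned the Tlx1 difference to 0.22, and cyclic loess turned that of the first Gm6116 region to 0.043.

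The difference followed the width and base composition of the regions. Among the 3677 regions of 300 bp the median difference was 0.47, and among the 548 of 5 kb or wider it was -0.85, of which 93.2% lay lower in E14 without overlap. In the widest class the library medians were 0.10 and 0.08 in E14 and 1.13 and 0.76 in the clones, so the classes differed mainly in the clones. In E14 the narrowest regions had the highest medians, at 0.33 and 0.38. The set was listed from E14, and no region had fewer than 10 reads in E14 replicate 2, which asks more reads per kb of a narrow region. The high E14 medians and the positive difference of narrow regions therefore cannot be told apart from the way the set was listed. By GC content the median difference went from 0.37 in the 1135 regions under 40% to -1.15 in the 376 regions of 55 to 60%. Across regions Spearman's rho of the difference was -0.56 with width and -0.39 with GC content, as a description of these 4 libraries. Under cyclic loess the median of the widest class was -0.12.

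Among the widest regions were those of Hoxb3 and Wnt3. At Hoxb3, an anterior gene of the B cluster (chr11:96321751-96340800), the values were 0.39 and 0.45 in E14 and 1.70 and 1.26 in the clones, a difference of -1.07. At the Wnt3 promoter, a ligand of gastrulation (chr11:103765801-103784100), they were 0.12 and 0.21 against 1.05 and 0.74, a difference of -0.74. At least 369 reads stood behind each of these values. Hoxb3 was called higher in WT clones, and Wnt3 was not, since its difference was under 1.

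Promoter regions had lower differences than the rest in both width classes, though the classes hold wider promoter regions. The median difference was -0.68 over the 3679 promoter regions and 0.13 over the other 17848, and 72.9% and 20.3% lay lower in E14 without overlap. The promoter median was -0.14 centred on the widest regions and -0.16 under cyclic loess. In regions of 2 kb or wider the median difference was -0.85 at promoters and -0.42 elsewhere, and in narrower regions -0.42 and 0.19. The median widths of promoter and other regions were 3150 and 2850 bp in the wider class but 1200 and 600 bp in the narrower one. GC content parted the regions within both width classes as well. In regions of 2 kb or wider the median was -0.31 below 45% GC and -1.26 at 55% or more, and in narrower regions it was 0.25 and -0.84.

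**Figure D3:**
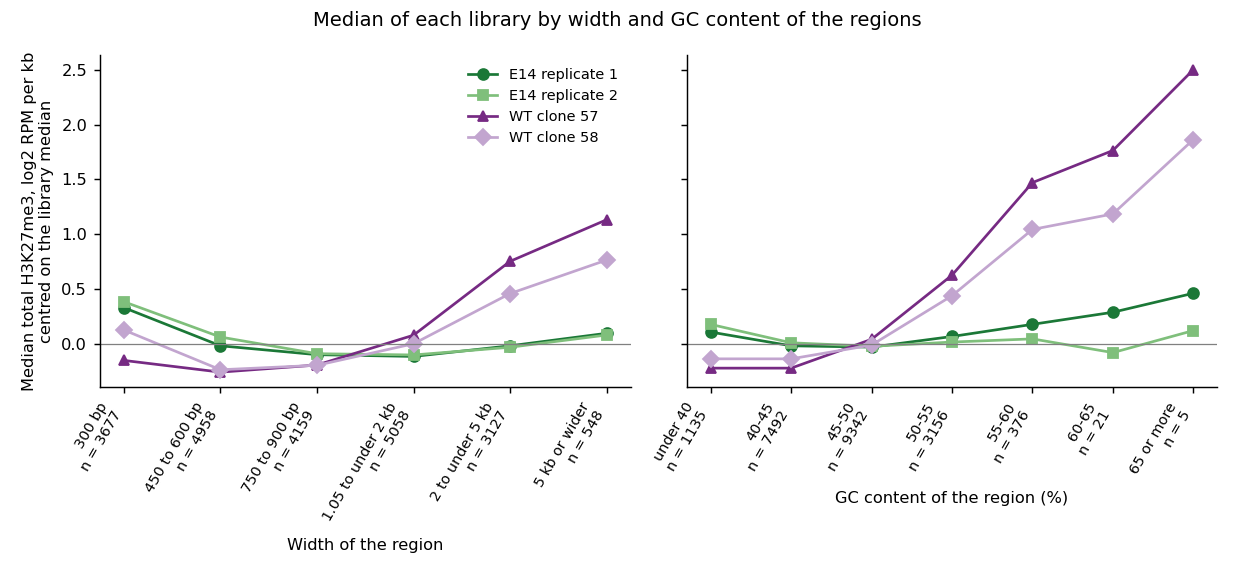
Median total H3K27me3 of each library (log2 RPM per kb, centred on the library median) by width of the region (left) and by its GC content in percent (right), with the number of regions in each class. The clones reach 1.13 and 0.76 in the widest class where E14 stays at 0.10 and 0.08, and the last GC class holds only 5 regions.

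Other ChIPs were not alike in this. Total H3K4me3 differed by 0.08 in regions under 40% GC and by -0.83 in those of 55 to 60% (medians, E14 minus WT clones), and K4-K27 by -0.003 and -0.92. K27-K4 differed by 0.19 and 0.50, with no fall. In the regions of 55 to 60% GC the K27-K4 medians were 2.32 and 4.42 in E14 and 3.15 and 2.48 in the clones, so that the 2 E14 replicates lay on either side of the clones. The IgG-IgG medians went from -0.42 to 0.58 in E14 and from -1.57 to 0.81 in clone 57 between these classes. Under 40% GC the clone 57 medians of IgG-IgG (-1.57) and K4-K27 (-0.57) lie at the value of a 300 bp region without reads. Clone 57 had no reads in 5730 regions in IgG-IgG and in 7252 in K4-K27, so this end of the trends is bounded by depth. With IgG-IgG subtracted, the median difference was -0.82 in regions of 55% GC or more, in place of -1.17, and -0.70 in regions of 5 kb or wider, in place of -0.85. With the trend on GC content removed from each library these were -0.04, near 0 by construction, and -0.40.

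The region sets of E14 and the WT clones were compared by any overlap of at least 1 bp. A WT clone region overlapped 5737 of the E14 regions (26.7%), and these were met by 5128 of the 21436 WT clone regions (23.9%). The median difference was -0.60 in the E14 regions that overlapped a WT clone region and 0.22 in those that did not. In the E14 regions that overlapped an E14 total H3K4me3 region it was -0.80, against 0.11 in the rest. Since both sets were listed from libraries used here, these medians are descriptions.

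Protein-coding promoters higher in E14 were fewer and rested on few reads in the clones. Outside the segment 13 regions met the conditions in this direction, with an unadjusted p under 0.05, and none overlapped a WT clone region among the 8 largest. At Pcx, which encodes pyruvate carboxylase (chr19:4511251-4511850), E14 measured -0.02 and 0.15 and the clones -2.37 and -1.46. The reads were 11 and 34 in E14 and 3 and 4 in the clones, and the difference was 1.98 with a standard error of 0.64 (limma adjusted p = 0.117). Total H3K4me3 at this region was 2.06 and 2.14 in E14 and 3.63 and 2.10 in the clones.

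Genes of cilia and of muscle were among the others. Dnah11, an axonemal dynein heavy chain (chr12:118197451-118197750), measured 0.84 and 0.45 in E14 and -0.37 and -1.46 in the clones, from 6 and 2 reads. The DKO clones stood at 0.93 and 0.50 there, level with E14. Ccdc65, a part of the ciliary nexin-dynein regulatory complex (chr15:98709601-98710350), measured -0.22 and 0.13 against -0.96 and -1.78, a difference of 1.33 that turned to -1.91 with IgG-IgG subtracted. At Mlip, a lamin-interacting protein of muscle (chr9:77347201-77347950), the values were 0.37 and -0.51 against -1.47 and -1.78. Myh8, the perinatal myosin heavy chain (chr11:67276801-67277550), measured 0.72 and -0.35 against -1.70 and -0.97. At both muscle genes the E14 replicates lay far apart, and the clones had 4 to 7 reads.

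Col1a2, a chain of type I collagen (chr6:4507051-4507500), differed by 1.26, which turned to -0.65 with IgG-IgG subtracted. Cmah, of sialic acid synthesis (chr13:24414451-24414900), differed by 1.16 and Ido2, of tryptophan breakdown (chr8:24574801-24575700), by 1.09. Ido2 measured 0.40 and -0.17 in E14 and -1.22 and -0.72 in the clones, with 10 reads in each clone. Of the 8 it alone had enough reads in every library, and it was called higher in E14 (limma adjusted p = 0.00711 among regions with at least 10 reads). With precision weights Pcx and Myh8 were called. With IgG-IgG subtracted the 8 ran from -1.91 (Ccdc65) to 4.26 (Dnah11), and Ido2 differed by 0.0054. At Ccdc65 and Col1a2 the clone 57 control had no reads.

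The region with the lowest p in this direction over the whole set was a repeat and was named after its values were seen. It lies on chr9:3018001-3019800, is 93.3% repeat-masked, and measured 2.15 and 2.47 in E14 (148 and 508 reads) and -0.42 and 0.35 in the clones (35 and 42 reads). Its difference was 2.34 (limma adjusted p = 0.0566). The IgG-IgG control was high there as well, at 1.70 in E14 and 1.88 in clone 57. Whether reads from other copies of the repeat were placed there was not tested.

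Along chromosome 14, total H3K27me3 was lower in all clones over 1 continuous stretch. In the 497 regions between 40 and 90 Mb the library medians were -0.04 and -0.02 in E14 and -0.96 and -1.0 in clones 57 and 58. The DKO clones stood at -1.03 and -1.0, level with the WT clones. The means of the medians were -0.03 ± 0.01 (SD, n = 2) in E14 and -0.98 ± 0.03 (SD, n = 2) in WT clones, a difference of 0.95 or 1.93-fold, far beyond the spread within the groups. The exact two-sided permutation test gave p = 0.33, which is the smallest that 2 against 2 allows. In 474 regions (95.4%) the difference was positive, and in 400 (80.5%) both E14 libraries lay above both clones, against 22.2% outside the segment.

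The step was abrupt toward 40 Mb and less so beyond 90 Mb. In 5-Mb windows the median difference was 0.86 to 1.59 in the 10 windows of the segment, and -0.12 to 0.35 in the 6 windows before 35 Mb. It was 0.23 in the window from 35 to 40 Mb, which holds 15 regions, and 0.53 in the window from 90 to 95 Mb, which holds 6. From 95 to 110 Mb the windows lay between 0.29 and 0.65, and in the 3 windows after 110 Mb between -0.09 and -0.02. Over the rest of chromosome 14 the median was 0.08. The other 19 chromosomes ranged from -0.28 (X) to 0.14 (11).

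**Figure D4:**
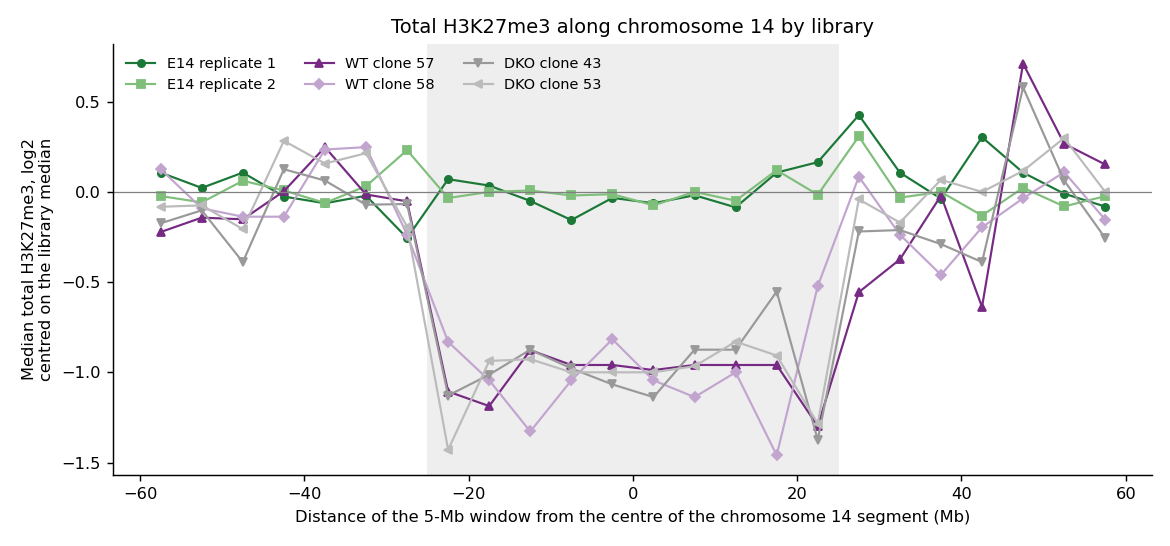
Median total H3K27me3 (log2 RPM per kb, centred on the library median) in 5-Mb windows of chromosome 14 for the E14, WT clone and DKO clone libraries, by distance in Mb from the centre of the segment (shaded). Within the shading E14 stays near 0 and every clone lies below it in every window. Outside the shading the lines cross, except in the windows from 10 to 20 Mb and from 90 to 100 Mb of the chromosome, where every clone also lies below E14.

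Promoter regions had lower differences than other regions within the segment, as they did outside it. The 82 promoter regions there had a median difference of 0.42 and the other 415 regions 1.12, against -0.70 and 0.12 outside the segment. Of the 82, 49 lay higher in E14 without overlap and 4 lower, against 4.36% and 74.4% of the 3597 promoter regions outside it. At Siah3, a relative of the Siah ubiquitin ligases (chr14:75457051-75457950), E14 measured 0.18 and -0.03 and the clones -1.74 and -2.46, a difference of 2.17. At Lcp1, an actin-bundling protein of leukocytes (chr14:75135301-75136050), the values were 0.29 and 0.10 against -2.28 and -1.46, a difference of 2.06. Both rested on 3 to 7 reads in a clone. With IgG-IgG subtracted the Lcp1 difference turned to -0.43, where the clone 57 control had no reads. The beta-defensin gene Defb30 (chr14:63037051-63038100), named by the same rule, differed by 1.30. With precision weights all 3 were called higher in E14.

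At a few Polycomb targets in the segment the E14 libraries did not both lie above the clones. They were named after their values were seen. Their differences are to be read against those outside the segment, with medians of -0.70 over promoter regions, -0.79 over Sox and -0.96 over Gata regions. Gata4, a factor of endoderm and heart (chr14:63246451-63249300), measured 0.11 and -0.03 in E14 and 0.87 and -0.01 in the clones. Sox7, of endoderm and endothelium (chr14:63943801-63947100), measured -0.08 and -0.01 against 0.25 and 0.13. At Hr, a corepressor of the hair cycle (chr14:70554451-70557750), the values were 0.15 and 0.15 against 1.03 and 0.65, a difference of -0.69. None of them was called.

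The step was there in every kind of library. The segment took 2.07% and 2.09% of the reads in all regions in E14 total H3K27me3, and 0.948% and 0.996% in clones 57 and 58. In total H3K4me3 it took 2.04% and 1.99% in E14 and 0.975% and 1.05% in the clones, in K4-K27 1.83% and 1.82% against 0.897% and 0.906%, and in K27-K4 1.87% and 1.73% against 0.874% and 0.876%. The DKO clones took 0.985% and 0.963% in total H3K27me3. In the IgG-IgG control, which has no antibody to a histone mark, the share was 2.04% in E14 (95% Wilson interval 1.97 to 2.11%) and 1.09% in clone 57 (1.05 to 1.13%). These intervals cover counting error only, since PCR reads are not independent molecules. With the IgG-IgG value subtracted from each region, the segment's difference was 0.09 in place of 0.95. The median segment region had only 3 IgG-IgG reads in E14 and 3 in clone 57.

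**Figure D5:**
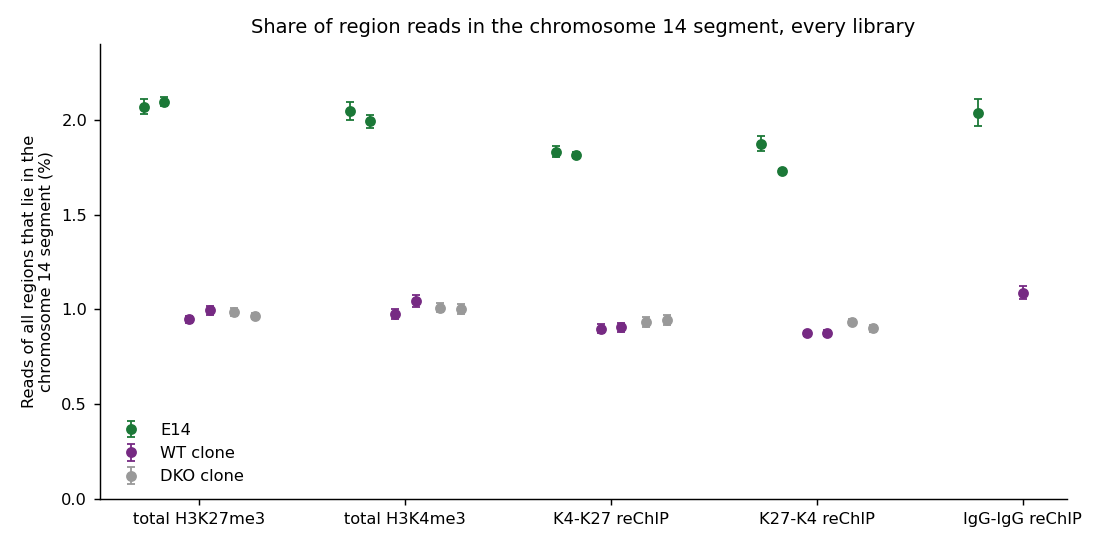
Share of the reads in all regions that lie in the chromosome 14 segment (percent), for each library (points) by ChIP, with 95% Wilson intervals that cover counting error only. All E14 libraries sit between 1.73% and 2.09% and all clone libraries between 0.874% and 1.09%, the IgG-IgG controls among them.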

How the data were processed

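The authors trimmed reads with Trim Galore 0.6.6, aligned them to mm10 (GRCm38.p6) with BWA 0.7.13 and quantified them in SeqMonk; duplicates were kept, reads with a mapping quality above 20 were used and extended by 200 bp. The deposited values are log2 read counts that the authors corrected for library size and region length, without input or IgG subtraction. The scale of RPM per kb was read from the values, since the methods give the length correction per bp. The study's methods name EPIC2 with 100 bp bins, run on each replicate with IgG-IgG as control, while the submitters' processing notes list MACS2. All deposited regions (100.0%) have widths and starts in steps of 150 bp, so the caller and settings behind this set are uncertain. From these log2 values whole reads were recovered for 100.0% of values (tolerance 0.1), with 0 entered by the authors as 0.9 reads, and the depth of the 4 libraries was 12294689 to 31847411 reads. The 8 value columns of no sample were not used.

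Each library was centred on its median. E14 and WT clones were compared with limma 3.58.1 (R 4.3.3, variance trend, robust) on the deposited log2 values. A count test on the recovered reads was not run. Benjamini-Hochberg adjustment was over 21527 regions, with a call at a log2 difference above 1 and an adjusted p under 0.05. The script was tested on reads simulated with an assumed spread. There the fit recovered 42.5% of regions changed by 2 log2 units and 90.5% of those changed by 3, so it can miss differences of the size seen here. Tables were made with pandas 2.3.3 and scipy 1.17.1. A promoter region is one within 1.5 kb of any of 31647 RefSeq start sites. The regions named are the 8 protein-coding promoter regions with the largest difference in each direction outside chromosome 14 from 40 to 90 Mb, and 4 within it (1 of which is not reported here), without overlap between groups and with at least 10 reads in both libraries of the higher group. As none was called, those with an unadjusted p under 0.05 were taken. The members, the segment and the gene lists were chosen with earlier results of these data known. The 19 alternatives covered scaling, IgG-IgG subtraction, variance model, filters, left-out libraries and, added after seeing the data, removal of the trend on GC content.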

Additional observations from a re-analysis of the deposited data

How the results depend on the processing

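The counts of calls depend on how low-read regions and the scaling are treated. By limma, calls higher in E14 and in WT clones were 0 and 0 under quantile normalisation, centring on the widest regions, cyclic loess, no variance trend, no robust estimation, no threshold on the difference and removal of the GC trend, as in the main analysis. At an unadjusted p under 0.05 the excess toward WT clones in the main analysis (1519 and 3216) turned toward E14 when centred on the widest regions (5799 and 1242), under cyclic loess (1263 and 321) and without centring (3794 and 1061). It stayed toward WT clones under quantile normalisation (1265 and 1809), without a variance trend (1933 and 2709), without robust estimation (1580 and 3221) and with the GC trend removed (1338 and 2383). Calls were 1010 and 96 without centring (913 and 96 outside the chromosome 14 segment), 5911 and 5791 with IgG-IgG subtracted (5771 and 5661 outside), 182 and 1469 with precision weights (90 and 1469 outside), 45 and 1050 without the lowest quartile (44 and 1050 outside), 35 and 1418 with at least 10 reads (19 and 1418 outside), 92 and 1292 at 1 kb or wider (38 and 1292 outside), 0 and 1166 where a WT clone region overlaps (0 and 1166 outside) and 183 and 1236 with the DKO clones in the fit (152 and 1236 outside). The IgG-IgG subtraction uses 1 control per group, whose error is then outside the spread. These controls had only 3 (E14) and 8 (clone 57) reads in the median region, and 1433 and 5730 regions without reads. Leaving out 1 library gave 0 to 20 calls higher in E14 and 0 to 30 higher in WT clones, in the whole set and outside the segment. The calls came without E14 replicate 2 (20 and 30) and without E14 replicate 1 (1 and 0), where the lone E14 library is assumed to vary like the clones.

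The segment's difference of 0.95 was 1.22 without centring, 0.63 with quantile normalisation, 1.49 centred on the widest regions, 0.20 with cyclic loess, 0.090 with IgG-IgG subtracted, 0.34 without the lowest quartile, 0.53 with at least 10 reads, 0.70 at 1 kb or wider, 0.21 where a WT clone region overlaps and 0.99 with the GC trend removed. It was 0.93 to 0.97 with 1 library left out. Named regions that turned were Ccdc65 (-1.91), Col1a2 (-0.65), Lcp1 (-0.43) and Tlx1 (0.22) with IgG-IgG subtracted, and Gm6116 (0.043) under cyclic loess. At Ccdc65, Col1a2 and Lcp1 the clone 57 control had no reads, so these turns rest on the value entered for none. Of all values for the 22 named regions under the alternatives, 276 kept direction and side of the threshold, 93 passed it and 5 turned. The size moved more than the direction. The 8 promoter differences toward WT clones, -2.39 to -2.03, were -1.22 to -0.07 with the GC trend removed, -1.01 to -0.41 under cyclic loess and -2.65 to -0.08 with IgG-IgG subtracted. The 8 toward E14, 1.09 to 1.98, were 0.24 to 1.44 under cyclic loess and -1.91 (Ccdc65) to 4.26 (Dnah11) with IgG-IgG subtracted. The causes were not tested. The count test planned in case of counts was not run, as the deposited values are log2 values, nor was it run on the recovered reads. No paired analysis was possible because the E14 replicates and the clones share no replicate number. In 8179 of the 21527 regions (38.0%) at least 1 clone had under 10 reads, and a difference there may not be detectable at this depth.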
